A study of Mus musculus with 10 samples.

Results

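Club cells and goblet cells are the secretory cells of the airway lining, and 10 genes that mark them or their products were followed here in the lungs of smoke-exposed and control mice. The genes were picked by name as known markers of these cells, with earlier results of these data known. Counts of them set beside shares of all probes are therefore a description only. Scgb1a1, Scgb3a1, Scgb3a2 and Cyp2f2 stand for club cells, Muc5ac and Muc5b for the gel-forming mucins, Agr2 and Spdef for the goblet cell programme, and Bpifa1 and Reg3g for secreted defence proteins. They are 10 of the 27557 genes on the array, with 1 probe each. For 9 of the 10 the probe was named through its accession or symbol (Bpifa1 under its older name Plunc). The Muc5ac probe carries an Ensembl transcript as its name and was tied to Muc5ac only through a cDNA clone listed beside it, whose product the file describes as a fragment of the MUC5AC protein.

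The mice were females of the inbred BALB/c strain that arrived at 6 to 8 weeks of age, and 5 of them breathed cigarette smoke and 5 room air for 8 weeks. Smoke came from 12 cigarettes in each of 2 exposures of 50 minutes a day, on 5 days a week, and the other mice received none. Whole-lung RNA of each mouse was hybridised to 1 Agilent mouse genome array together with a reference RNA, so a level here is the log2 ratio of the lung (red) over the reference (green) signal of a probe, and it cannot be set against the level of another probe. The arrays came as 5 slides, and each slide held the smoke and the room air array of the same replicate number. The smoke array was at place 1 and the room air array at place 2 on every slide, so place and exposure cannot be separated, with or without the slide as a block. A difference is the mean of the 5 smoke arrays minus that of the 5 room air arrays, on the log2 scale, tested with limma over 41173 probes with Benjamini-Hochberg adjustment at an adjusted p threshold of 0.05.

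Club cells line the small airways of the mouse, where they secrete secretoglobins into the airway fluid and metabolise inhaled chemicals, and they can give rise to ciliated and mucous cells. Goblet cells store mucins as condensed granules and release them to form the mucus gel, in which Muc5b is the mucin of healthy mouse airways and Muc5ac the one linked to mucous metaplasia. The disulfide isomerase Agr2 is needed to fold these mucins in the endoplasmic reticulum, and the transcription factor Spdef drives goblet cell differentiation.

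Only 1 dye is named in the sample labels, and which colour holds the lung RNA had to be found from the values. The Y-linked gene Ddx3y gave 9.92 ± 0.43 in green and 2.97 ± 1.15 in red (log2 of the scanner's processed signal, SD, n = 10), and Scgb1a1 was brighter in red by 6.72. Red was therefore read as the RNA of the female lungs. All 10 genes were well above background in red on 10 of 10 arrays, as were 17097 of the 27557 genes, so detection alone does not single out the secretory cells. In the green reference Muc5b was well above background on 8 arrays, and Agr2 and Reg3g on 3 each, so that the absolute ratio of those genes rests on a dim denominator. Between 67.8 and 76.7% of the red spots were well above background on the room air arrays and between 64.9 and 77.5% on the smoke arrays. Precision is limited here by having 5 arrays per group. The value table deposited with the arrays has its groups exchanged against the scanner files, and every direction given here rests on the scanner files as assigned to the samples.

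Room air replicate 1 stood apart from the other room air lungs when the room air arrays were compared with each other. Its level lay far above the other 4 room air arrays for 850 of 41174 probes, against 121 to 426 for each of those 4, by the gap to the nearest array relative to the range of the group. The cytokine gene Il1b was 5.96 in it and 2.41 to 2.85 in the other 4, the chemokine gene Ccl20 3.85 against 0.20 to 0.73, and the neutrophil gene S100a8 4.39 against 1.49 to 2.09. Without this array Il1b passed the test described above, higher with smoke by 0.67 (adjusted p = 0.00728), as did S100a8 by 0.97 (adjusted p = 0.00458), and with all arrays neither did, at 0.01 (adjusted p = 0.996) and 0.47 (adjusted p = 0.718). These 3 genes were chosen after their values were seen, for their high level in this array. Leaving out the highest room air array had to raise their differences, so no conclusion on smoke is drawn from those 2 calls. Among the secretory genes the same array was the highest of the room air group for Reg3g, Agr2, Muc5b, Bpifa1 and Scgb3a1. For several genes the value without this lung is given below beside that of all arrays. This lung was singled out after the values were seen. Where it was the highest of the room air group, leaving it out had to raise the difference.

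With all 10 arrays, only Muc5ac passed the threshold among the 10 genes, and it was higher with smoke. That is 1 of 10, where 7.06% of all probes passed in either direction and 4.35% were called higher. An unadjusted p under 0.05 was found for 5 of the 10, beside 18.2% of all probes. Over all probes 1793 were higher and 1113 lower (687 and 747 when ratios were only centred on the median of each array, and 13 and 0 in the authors' table by matching array). Without room air replicate 1, Reg3g, Agr2 and Muc5b passed as well, all higher with smoke, which makes 4 of 10 beside 8.89% of all probes (5.37% higher, 3.52% lower). That array was singled out after seeing the data and was the highest room air array for these 3 genes. Each fit without another array gave 1 or 2 of 10. With the slide as a block, Spdef, Scgb3a1 and Muc5b passed beside Muc5ac, 4 of 10 beside 12.2% of all probes (6.78% higher). With slide 1 left out and the slide as a block, a setting chosen after seeing the data, 7 of 10 passed beside 14.8% of all probes (7.81% higher, 6.98% lower), and the 3 that did not were Scgb1a1, Scgb3a2 and Cyp2f2. The smoke mean was above the room air mean for 8 of the 10 genes, beside 13251 of the 27557 genes on the array. The median difference of the 10 was 0.50 beside 0.00 over all genes.

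**Figure D1:**
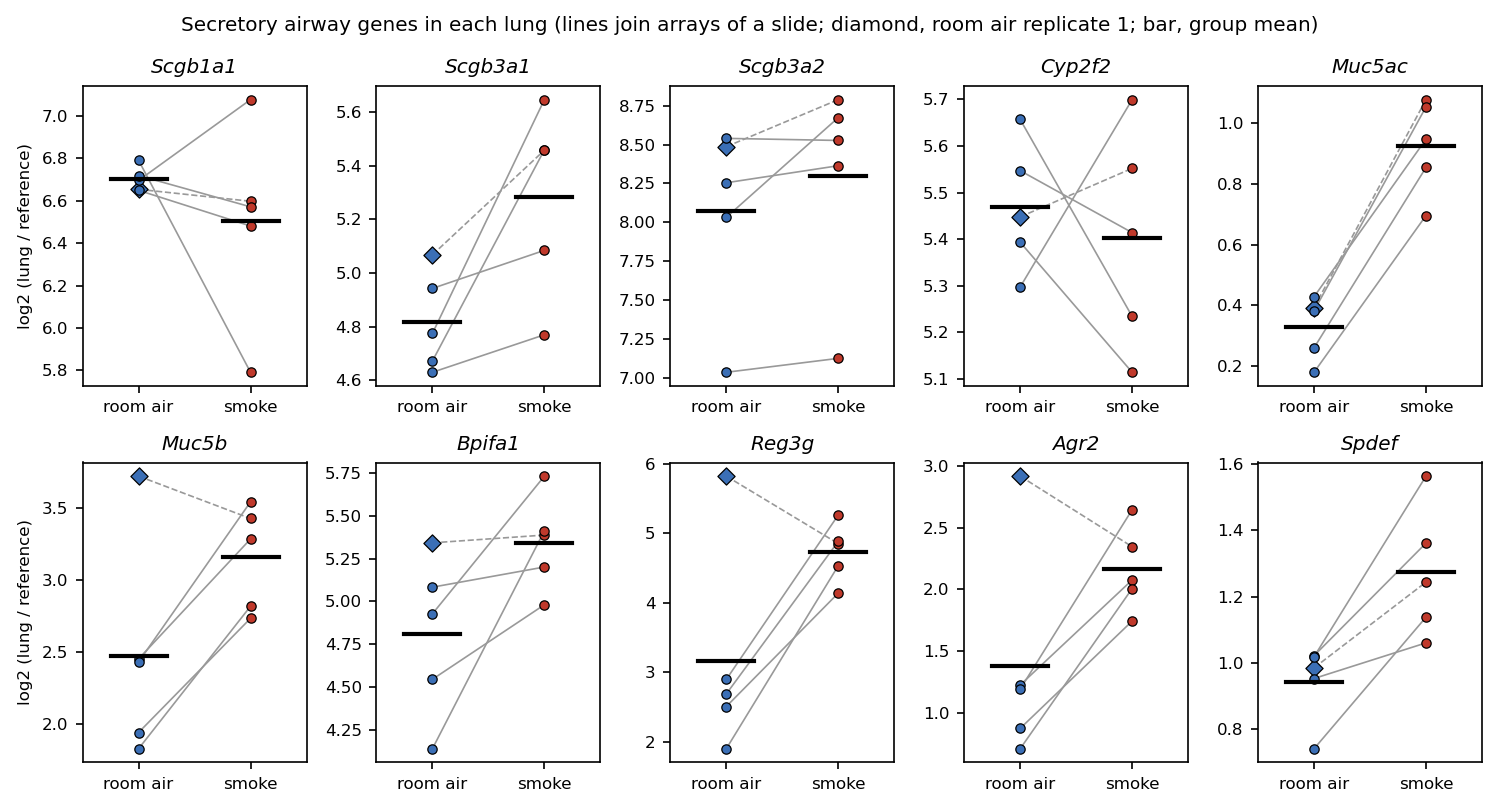
Log2 ratio of lung over reference RNA for each of the 10 secretory airway genes in the 5 room air and 5 smoke lungs, with a line joining the 2 arrays of a slide, a diamond for room air replicate 1 and a bar for each group mean. The smoke arrays of Muc5ac and Spdef all lie above the room air arrays, whereas the diamond lies above the smoke arrays for Muc5b, Agr2 and Reg3g.

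The club cell genes come first. Scgb1a1 encodes the main secretoglobin of club cell fluid, long used as their marker. Its level was 6.65, 6.70, 6.79, 6.72 and 6.65 in room air replicates 1 to 5, and 6.60, 7.08, 5.79, 6.57 and 6.48 in smoke replicates 1 to 5. The room air lungs lay within a narrow band, while smoke replicate 2 was above all of them and smoke replicate 3 far below, so the groups overlapped. The difference was -0.20 (95% CI -0.59 to 0.19, adjusted p = 0.684), which is a fold change of 0.872. Without smoke replicate 3 it was -0.02 (adjusted p = 0.964) and without smoke replicate 2 -0.34 (adjusted p = 0.266). On 4 of 5 slides the smoke array was lower than its room air partner, most on slide 3, and on slide 2 it was higher by 0.38. When the ratios were also scaled between arrays the sign turned, to 0.13. Its adjusted p ranged from 0.228 to 1 over 25 alternative settings, and it passed in 0. In bulk lung, fewer secretory cells and less RNA per cell cannot be told apart, for this gene and all that follow.

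Cyp2f2 is the cytochrome P450 with which mouse club cells oxidise naphthalene and other inhaled compounds. It was 5.45, 5.30, 5.66, 5.39 and 5.55 with room air and 5.55, 5.70, 5.23, 5.11 and 5.41 with smoke. The highest and the lowest array were both smoke lungs, replicates 2 and 4. The difference was -0.07 (95% CI -0.31 to 0.17, adjusted p = 0.860), and it turned to 0.20 with ratios scaled between arrays and to 0.01 without smoke replicate 4. In red alone it was -0.24 (adjusted p = 0.636) at the 75th percentile and -0.42 (adjusted p = 0.0931) with quantile scaling. It passed in 0 of 25 alternative settings (adjusted p 0.0931 to 1).

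Scgb3a2, a secretoglobin of club cells in the small airways, varied with the slide more than with smoke. Its level was 8.49, 8.03, 8.54, 7.04 and 8.25 with room air and 8.79, 8.67, 8.53, 7.12 and 8.36 with smoke. Both arrays of slide 4 lay below all the others, and the remaining arrays of the groups overlapped. The difference was 0.23 (95% CI -0.53 to 0.99, adjusted p = 0.846), and without room air replicate 4 it was -0.03. Within slides it was 0.30, 0.64, -0.01, 0.09 and 0.11. With ratios scaled between arrays the difference was 0.63 (adjusted p = 0.625), and in red alone at the 75th percentile 0.70 (adjusted p = 0.0824). Over 25 alternative settings the adjusted p lay between 0.0824 and 1, past the threshold in 0.

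Scgb3a1 is a secretoglobin that is more abundant in the larger airways. It was 5.07, 4.77, 4.94, 4.63 and 4.67 with room air, and 5.46, 5.65, 5.08, 4.77 and 5.46 with smoke. Smoke replicates 1, 2 and 5 were the 3 highest arrays, and smoke replicate 4 fell among the room air lungs. The difference was 0.47 (95% CI 0.13 to 0.81, adjusted p = 0.110), and the smoke array was higher on 5 of 5 slides, by 0.39, 0.87, 0.14, 0.14 and 0.79. It passed with the slide as a block (adjusted p = 0.0383) and without smoke replicate 4 (0.59, adjusted p = 0.0176), but not without room air replicate 1 (0.53, adjusted p = 0.0672). Its adjusted p ranged from 0.00304 to 0.525 over 25 alternative settings, and it passed in 5.

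Of the gel-forming mucins, Muc5ac is scarce in the airways of unexposed mice and is the mucin that inflamed airways add. It was 0.39, 0.43, 0.38, 0.18 and 0.26 with room air and 1.08, 0.95, 1.05, 0.70 and 0.85 with smoke. All 5 smoke lungs lay above all 5 room air lungs, as they did for 4.09% of all probes. The level rose by 0.60, or 1.51-fold (95% CI 0.42 to 0.77 on the log2 scale, adjusted p = 0.000923), and within slides by 0.68, 0.52, 0.67, 0.51 and 0.59. The call held without each of the 10 arrays in turn, with an adjusted p of 0.000490 to 0.00344. It was lost with the scanner's own log ratio (1.18, adjusted p = 0.0702) and with the red channel alone at a common 75th percentile (1.21, adjusted p = 0.0970), where the difference was larger and so was the spread. It passed in 20 of 25 alternative settings (adjusted p 0.000131 to 1).

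The array's own coordinates, in mouse build mm7, put this probe at chr7:138246168-138246227 and the Muc5b probe at chr7:138300110-138300169, both on the plus strand; whether they lie in an exon or a UTR was not analysed here. A further probe, at chr7:138237950-138238009, is described in the files as a predicted transcript similar to mucin 5AC and lies outside the rule. It was 0.11, -0.07, 0.03, 0.42 and 0.03 with room air and 0.15, 0.14, 0.20, 0.47 and 0.01 with smoke, a difference of 0.08 (95% CI -0.14 to 0.31, adjusted p = 0.792). So a rise was measured on the probe tied to Muc5ac by its clone, and on the probe of the predicted transcript the groups overlapped. Since the name of the former rests on that clone, the first 30 of the 60 bases of both probes are shown, 5′ to 3′ as the files give them.
Muc5ac by clone: ctgaatactgctgctgtcccaaccaaaagg
predicted transcript: gacttctcctgtgacattatcccataagcc

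Muc5b, the mucin that club and gland cells make at rest, was 3.73, 2.45, 2.43, 1.94 and 1.83 with room air and 3.43, 3.29, 3.55, 2.74 and 2.82 with smoke. Room air replicate 1 was the highest of the 10 arrays, and the 5 smoke lungs all lay above the other 4 room air lungs, as for 6.02% of all probes. With all arrays the difference was 0.69 (95% CI -0.01 to 1.39, adjusted p = 0.286). Without room air replicate 1 it was 1.00 (95% CI 0.57 to 1.43, 2.00-fold, adjusted p = 0.00758), and on all arrays with the scanner's own log ratio 0.46 (adjusted p = 0.581). Within slides it was -0.29, 0.84, 1.12, 0.80 and 0.99, negative only on slide 1, and with the slide as a block the gene passed (adjusted p = 0.0474). Over 25 alternative settings the adjusted p lay between 2.55e-05 and 1, past the threshold in 3.

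Agr2 showed the same arrangement of arrays. Its level was 2.92, 1.22, 1.19, 0.87 and 0.71 with room air and 2.34, 2.08, 2.64, 1.74 and 2.01 with smoke, with room air replicate 1 again the highest and the other 4 room air lungs below all smoke lungs. The difference was 0.78 (95% CI -0.01 to 1.57, adjusted p = 0.285) with all arrays and 1.16 (95% CI 0.79 to 1.54, adjusted p = 0.00143) without room air replicate 1. On slides 2 to 5 the smoke array was higher by 0.85, 1.45, 0.87 and 1.30, and on slide 1 it was lower, at -0.57. With green well above background on 3 of 10 arrays, the size of its ratios is uncertain. Its adjusted p ranged from 0.000119 to 0.510 over 23 alternative settings, and it passed in 2.

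Spdef did not share that arrangement. It was 0.99, 1.02, 1.02, 0.74 and 0.95 with room air and 1.24, 1.36, 1.56, 1.14 and 1.06 with smoke, and room air replicate 1 was in the middle of its group. All 5 smoke lungs were above all 5 room air lungs, so that 2 of the 10 genes, Spdef and Muc5ac, had groups that did not overlap, beside 6.89% of all probes in either direction. The difference was small, 0.33 (95% CI 0.12 to 0.53, adjusted p = 0.0610), a fold change of 1.26. It passed with the slide as a block (adjusted p = 0.0145) and without smoke replicate 5 (0.38, adjusted p = 0.0407), and not without room air replicate 1 (0.34, adjusted p = 0.0683). It passed in 7 of 25 alternative settings (adjusted p 0.00616 to 1).

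Among the defence proteins, Bpifa1 is a surfactant-like protein that the upper airways secrete. It was 5.34, 4.93, 5.08, 4.54 and 4.14 with room air and 5.39, 5.73, 5.20, 4.98 and 5.41 with smoke. Room air replicate 1 had a level within the smoke group, and room air replicate 5 was the lowest array. The difference was 0.54 (95% CI 0.07 to 1.00, adjusted p = 0.189), and without room air replicate 1 it was 0.67 (adjusted p = 0.0569). With the scanner's own log ratio it was 0.05 (adjusted p = 0.969). The smoke array was higher on 5 of 5 slides, by 0.05, 0.81, 0.12, 0.44 and 1.27, as for Scgb3a1, Muc5ac and Spdef, 4 of the 10 genes beside 11.4% of all probes. Over 25 alternative settings the adjusted p lay between 0.0198 and 1, past the threshold in 1. That was slide 1 left out with the slide as a block, a setting chosen after seeing the data.

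Reg3g encodes a C-type lectin that binds and kills gram-positive bacteria. It was 5.82, 2.69, 2.90, 2.51 and 1.90 with room air and 4.85, 4.88, 5.26, 4.14 and 4.53 with smoke. Room air replicate 1 exceeded every smoke lung, and every smoke lung exceeded the other 4 room air lungs by more than their own range. The difference was 1.57 (95% CI 0.25 to 2.89, adjusted p = 0.176) with all arrays. Without room air replicate 1 it was 2.24 (95% CI 1.72 to 2.75, adjusted p = 0.000129), and with the scanner's own log ratio on all arrays 0.81 (adjusted p = 0.518). Within slides it was -0.97, 2.20, 2.37, 1.63 and 2.63. Green was well above background on only 3 of 10 arrays, so the size of these ratios is uncertain. Its adjusted p ranged from 1.09e-05 to 1 over 25 alternative settings, and it passed in 2.

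**Figure D2:**
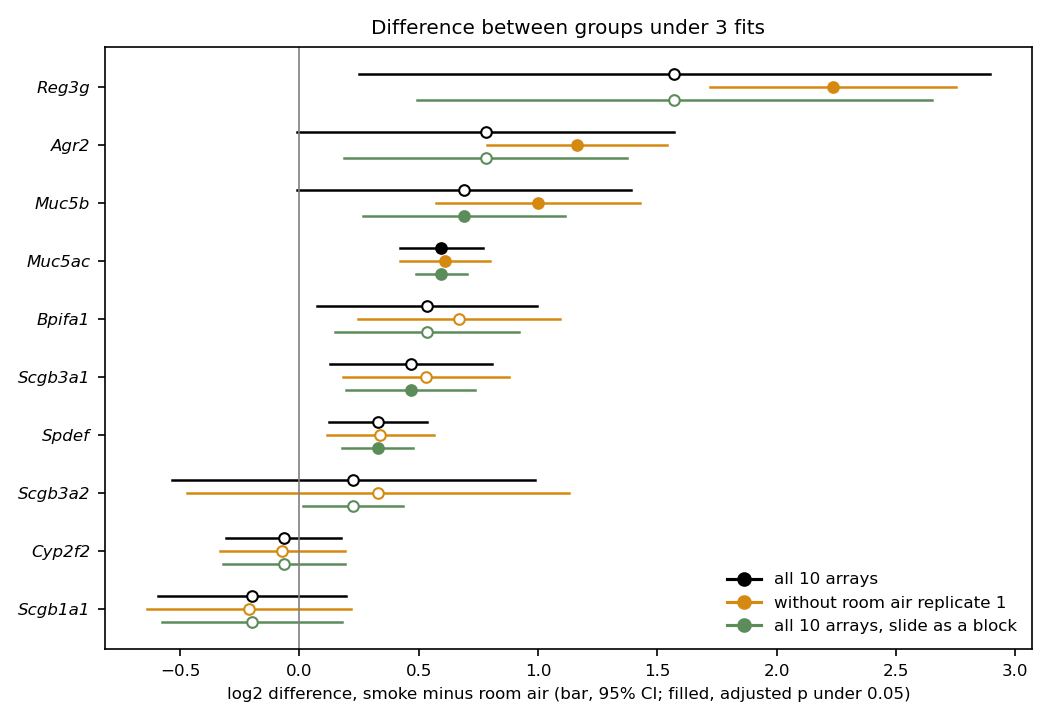
Log2 difference (smoke minus room air) of the 10 genes with its 95% CI in the fit of all 10 arrays, without room air replicate 1, and with the slide as a block, where filled points have an adjusted p under 0.05. For Reg3g, Agr2 and Muc5b the estimate moved up and its interval narrowed without that array, from 1.57 to 2.24 for Reg3g, whereas Muc5ac stayed near 0.60; the signs of Scgb1a1 and Cyp2f2 turned when ratios were scaled between arrays.

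The distance of room air replicate 1 from its group was not alike over the 10 genes. It exceeded the mean of the other 4 room air lungs by 3.33 for Reg3g, 1.92 for Agr2 and 1.56 for Muc5b, and by 0.52 for Scgb3a2, in each more than the mean of the smoke lungs did (2.24, 1.16, 1.00 and 0.33). For Bpifa1 it was above them by 0.67 and for Scgb3a1 by 0.31. It differed from them by only 0.08 for Muc5ac, 0.05 for Spdef, -0.03 for Cyp2f2 and -0.06 for Scgb1a1. In the same array the mean log2 ratio over 9 neutrophil genes was 2.88, against 1.57, 1.64, 1.45 and 1.71 in the other room air lungs and 2.37, 2.01, 2.20, 1.88 and 1.96 in the smoke lungs. The part of these cells in the high levels of that lung was not tested.

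**Figure D3:**
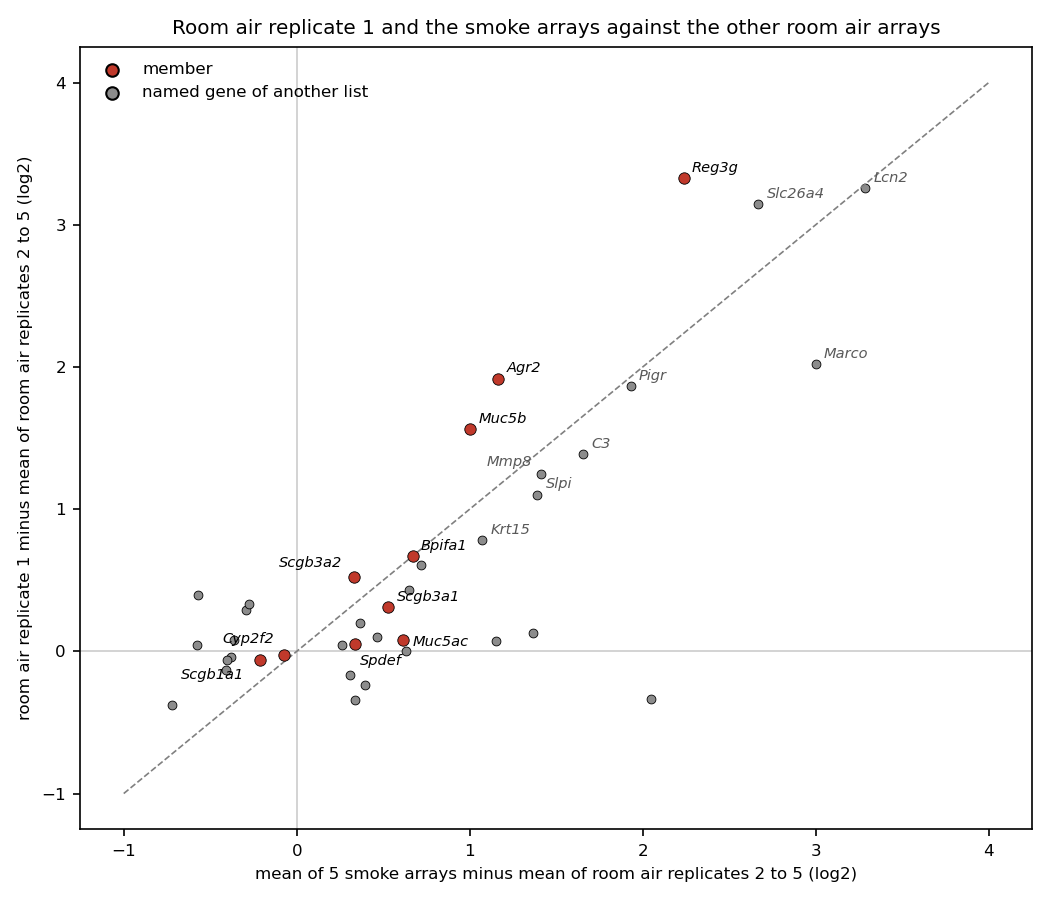
Room air replicate 1 minus the mean of the other 4 room air arrays (y axis) against the mean of the 5 smoke arrays minus the same mean (x axis), log2, for the 10 genes (red) and the named genes of other lists (grey); on the dashed line the 2 are equal. Of the 10 genes 6 lie above the line, Reg3g, Agr2, Muc5b and Scgb3a2 at values above 0 and Scgb1a1 and Cyp2f2 at values below 0. Slc26a4 also lies above it, Bpifa1, Lcn2 and Pigr close to it, and Muc5ac near 0 on the y axis.

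Since Reg3g and Agr2 were high in the same arrays, their promoters are shown, with that of Scgb3a1 as a club cell gene. They come from RefSeq (GRCm38.p6), which held a promoter for 6 of the 10 genes here, and cover the 250 bases before the start of each gene, 5′ to 3′ on the strand of the gene. Reg3g lies on the minus strand, at chr6:78468875-78469124, and Agr2 and Scgb3a1 on the plus strand, at chr12:35992675-35992924 and chr11:49663345-49663594.
Reg3g: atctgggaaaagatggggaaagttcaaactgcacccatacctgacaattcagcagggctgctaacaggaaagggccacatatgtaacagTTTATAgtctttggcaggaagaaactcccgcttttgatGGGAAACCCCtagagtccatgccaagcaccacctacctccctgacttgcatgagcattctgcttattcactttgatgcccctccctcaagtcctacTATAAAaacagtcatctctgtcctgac
Agr2: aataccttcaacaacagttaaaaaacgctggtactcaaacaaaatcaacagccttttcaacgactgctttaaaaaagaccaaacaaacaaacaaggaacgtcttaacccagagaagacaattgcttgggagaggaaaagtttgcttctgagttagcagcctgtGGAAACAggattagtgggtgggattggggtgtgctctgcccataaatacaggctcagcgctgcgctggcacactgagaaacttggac
Scgb3a1: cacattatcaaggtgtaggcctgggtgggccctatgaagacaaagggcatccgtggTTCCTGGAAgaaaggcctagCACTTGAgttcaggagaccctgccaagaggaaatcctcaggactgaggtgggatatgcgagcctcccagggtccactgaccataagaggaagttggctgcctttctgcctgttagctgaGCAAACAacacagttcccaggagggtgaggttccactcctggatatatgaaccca
Capitals mark matches, on either strand, to the motifs searched, which did not overlap each other in these promoters. The motifs were the TATA box TATAAA (in 12.4% of 32851 promoters of the same length), the 10-base NF-kappaB consensus (7.25%), TTCNNNGAA for STAT (7.02%), TTGCNNAA for C/EBP (9.56%) and TGACNNNGC for NRF2 (10.2%). For FOXA the letters TGTTTNC were searched (17.8%). For NKX2-1 they were CACTTGA (2.68%). For the aryl hydrocarbon receptor they were its core GCGTG (28.2%). Reg3g had a TATA box starting 27 bases before the start, the same letters on the other strand at 161, and a match to the NF-kappaB consensus at 123. Agr2 had 1 match, to the FOXA letters at 87. Scgb3a1 had matches for STAT at 194, NKX2-1 at 174 and FOXA at 55. These matches describe the letters only, and binding was not measured.

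For some of the genes the green signal of the spot moved along with the red. With each channel scaled to its 75th percentile, the red signal of Scgb3a1 was higher with smoke by 1.94 and the green by 1.50. For Bpifa1 the differences were 1.42 in red and 1.37 in green. For Muc5ac the green difference was 0.03 and the red 1.21. For Reg3g and Agr2, whose green spots were mostly not above background, no green difference is given. Across the 259 probes with a mean log2 ratio over 4 and green well above background on all arrays, the red and green differences had a Pearson r of 0.876, and across the 18936 such probes with a mean ratio between -1 and 1 an r of 0.216. These correlations run across probes of the same arrays, which are not independent. In red alone Scgb3a1 passed (1.94, adjusted p = 0.00443), as did Spdef (0.64, adjusted p = 0.0111), and Bpifa1 did not (adjusted p = 0.189).

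Further genes of the secretory lining were read from 5 lists, of which 97 of 99 genes were measured. The lists too were chosen with earlier results of these data known. With all arrays 20 of the 97 passed, 13 higher and 7 lower with smoke, against 8.22% of all genes by their brightest probe. Without room air replicate 1 the count was 34 (28 higher, 6 lower; 10.3% of all genes), and with the slide as a block 35 (25 higher, 10 lower; 13.8%).

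Of 19 club cell enzymes and surface proteins, 2 rose and 17 did not pass, with a median difference of 0.04. Selenbp1, a selenium-binding protein, was 4.15, 4.16, 4.27, 4.13 and 4.02 with room air and 4.84, 5.01, 4.72, 4.62 and 4.69 with smoke, so the groups were separate. It rose by 0.63 (adjusted p = 0.000434), and the microsomal glutathione transferase Mgst1 by 0.44 (adjusted p = 0.000767), also with separate groups. When arrays were centred on their medians in place of loess, Mgst1 was at 0.35 and no longer passed (adjusted p = 0.121). The airway carbonyl reductase Cbr2 and the P450 enzyme Cyp4b1, at 0.05 (adjusted p = 0.908) and 0.02 (adjusted p = 0.983), did not pass, as with Scgb1a1 and Cyp2f2; both were chosen after their values were seen. In red alone at the 75th percentile Cyp4b1 turned to -0.63 and passed (adjusted p = 0.0364).

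Of 19 goblet cell and mucus genes, 3 rose, with a median over the list of 0.10. Without room air replicate 1 there were 7, beside 10.3% of all genes in either direction. Slc26a4 encodes pendrin, an anion exchanger of inflamed airway epithelium. It was 5.34, 2.20, 2.47, 1.75 and 2.38 with room air and 4.98, 4.99, 4.93, 4.36 and 5.08 with smoke, and room air replicate 1 was again the highest array. The difference was 2.04 (95% CI 0.82 to 3.25, adjusted p = 0.0495) with all arrays and 2.67 (95% CI 2.29 to 3.04, 6.35-fold, adjusted p = 3.05e-06) without that array, and the call was lost when any 1 of the other 9 arrays was left out (highest adjusted p = 0.114). The mucin-type glycosyltransferase gene Galnt12 rose by 0.34 (adjusted p = 0.00228) with separate groups, and did not pass with median centring, at 0.24 (adjusted p = 0.340). The fucosyltransferase gene Fut2, at 0.33 (adjusted p = 0.0373), kept its call only without room air replicate 1 or smoke replicate 4 when 1 array was left out (adjusted p up to 0.0976), and its second probe was at -0.05. Muc4, a membrane mucin named after its values were seen, was at 0.76 (adjusted p = 0.240) and, without room air replicate 1, at 1.11 (adjusted p = 0.000692), and with the scanner's ratio at 0.27 (adjusted p = 0.682). The calls of Slc26a4 and Fut2 were lost with that ratio, at 1.68 and 0.71 (adjusted p = 0.0685 and 0.224). Clca1 and Tff2, genes of mucous metaplasia, did not pass with all arrays, at -0.36 (adjusted p = 0.429) and 0.06 (adjusted p = 0.907), and they too were chosen after their values were seen.

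The secreted defence proteins held the largest difference of the 5 lists, that of Lcn2. Of 15 measured genes 5 rose and 0 fell, with a median of 0.57. Lcn2 encodes lipocalin 2, which binds bacterial siderophores. Its level was 4.03, 0.92, 0.85, 0.51 and 0.79 with room air and 4.04, 4.35, 4.13, 3.60 and 4.14 with smoke, so room air replicate 1 lay inside the smoke group. Pigr, the receptor that carries IgA into the lumen, had 4.52 in room air replicate 1, 2.33 to 3.03 in the other room air lungs and 4.29 to 4.78 in the smoke lungs. The rise was 2.63 (adjusted p = 0.0158) for Lcn2 and 1.56 (adjusted p = 0.0177) for Pigr, and without room air replicate 1 it was 3.28 (adjusted p = 1.57e-07) and 1.93 (adjusted p = 9.62e-06). With the scanner's own log ratio Pigr was at 0.08 (adjusted p = 0.941).

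Complement C3 rose by 1.38 (adjusted p = 0.00739) and the protease inhibitor Slpi by 1.17 (adjusted p = 0.00460), each with every smoke lung above every room air lung, although room air replicate 1 came within 0.30 and 0.06 of its slide partner. A second, dimmer Slpi probe was at 0.05 (adjusted p = 0.966). The mucosal chemokine Cxcl17 rose by 0.57 (adjusted p = 0.0225); when 1 array was left out its call held only without room air replicates 1 or 4 or smoke replicates 4 or 5 (highest adjusted p = 0.0619). It was also lost with the scanner's ratio, at 0.12 (adjusted p = 0.819), and with a normexp offset of 16, at 0.39 (adjusted p = 0.131). Bpifb1 and lactoferrin (Ltf), named after their values were seen, did not pass with all arrays, at 0.69 (adjusted p = 0.205) and 0.90 (adjusted p = 0.207), and passed without room air replicate 1, at 0.96 (adjusted p = 0.00703) and 1.22 (adjusted p = 0.0137), as well as with the slide as a block (adjusted p = 0.0456 and 0.0307), and were at 0.43 (adjusted p = 0.300) and 0.32 (adjusted p = 0.669) with the scanner's ratio. Macrophages and alveolar cells also express Lcn2, Slpi, C3 and others of this list, and these arrays cannot assign the RNA to a cell.

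Of 15 genes for docking and release of mucin granules, 2 rose and 3 fell (median -0.01). The syntaxin-binding protein Stxbp2 rose by 0.44 (adjusted p = 0.00810), with separate groups, and did not pass with median centring, at 0.34 (adjusted p = 0.174). The kinase substrate Marcks, at -0.35 (adjusted p = 0.0299), and the vesicle protein Vamp2, at -0.34 (adjusted p = 0.0420), fell. The adenosine receptor gene Adora3 rose by 0.25 (adjusted p = 0.0218), with green well above background on only 4 of 10 arrays. With 1 array left out the last 3 calls often ended. That of Marcks held only without room air replicates 1, 3 or 4 or smoke replicate 2 (highest adjusted p = 0.0733). That of Vamp2 held only without room air replicates 1 or 5 (0.102), and that of Adora3 without room air replicates 1 or 4 or smoke replicates 1 or 5 (0.0567). All 3 calls were lost with the scanner's ratio, where the differences did not shrink. They were -0.36 for Marcks, -0.38 for Vamp2 and 0.90 for Adora3 (adjusted p = 0.0656, 0.0726 and 0.286).

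Of 29 regulators of secretory cell fate, 1 rose and 4 fell. The Notch effector Hey1 was 4.45, 4.40, 4.53, 4.36 and 4.35 with room air and 4.02, 3.78, 3.82, 3.78 and 3.78 with smoke, and it fell by 0.58 with separate groups (adjusted p = 0.000179). Notch3 had a difference of -0.39 (adjusted p = 0.00607), the ligand Dll1 of -0.65 (adjusted p = 0.0386) and the ligand Jag2 of 0.41 (adjusted p = 0.0134). The Dll1 call was lost without room air replicate 1 (adjusted p = 0.0608) and held in 2 of the 10 fits with 1 array left out, those without room air replicate 4 or smoke replicate 1. Scaling the ratios between arrays ended the calls of Hey1, Notch3 and Dll1 without turning their sign, and median centring those of Notch3 and Jag2. In red alone Notch3 did not pass at the 75th percentile (-0.44, adjusted p = 0.151) or with quantile scaling (-0.43, adjusted p = 0.0995). Jag2 did not pass at the 75th percentile (0.40, adjusted p = 0.104). The scanner's ratio ended the calls of Dll1 and Jag2, at -0.61 and 0.47 (adjusted p = 0.118 and 0.0718). Egfr, a receptor upstream of mucin expression, was at -0.38 (adjusted p = 0.00570) by its brightest probe, and its other 5 probes did not pass. These genes are also expressed in vessels and other lung cells.

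Without room air replicate 1, 8 of these regulators were higher and 3 lower, beside 10.3% of all genes in either direction. That array lay far above its group for 5 of the 29 regulators, and leaving it out had to raise their differences. The transcription factors that hold airway identity did not pass with all arrays, with, chosen after their values were seen, Nkx2-1 at 0.03 (adjusted p = 0.943), Foxa2 at 0.16 (adjusted p = 0.379) and Sox2 at 0.08 (adjusted p = 0.905). Il13, the cytokine that drives Spdef and Muc5ac in allergic airways, was, also chosen after its values were seen, at 0.08 (adjusted p = 0.629) and well above background in red on 4 room air and 5 smoke arrays.

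**Figure D4:**
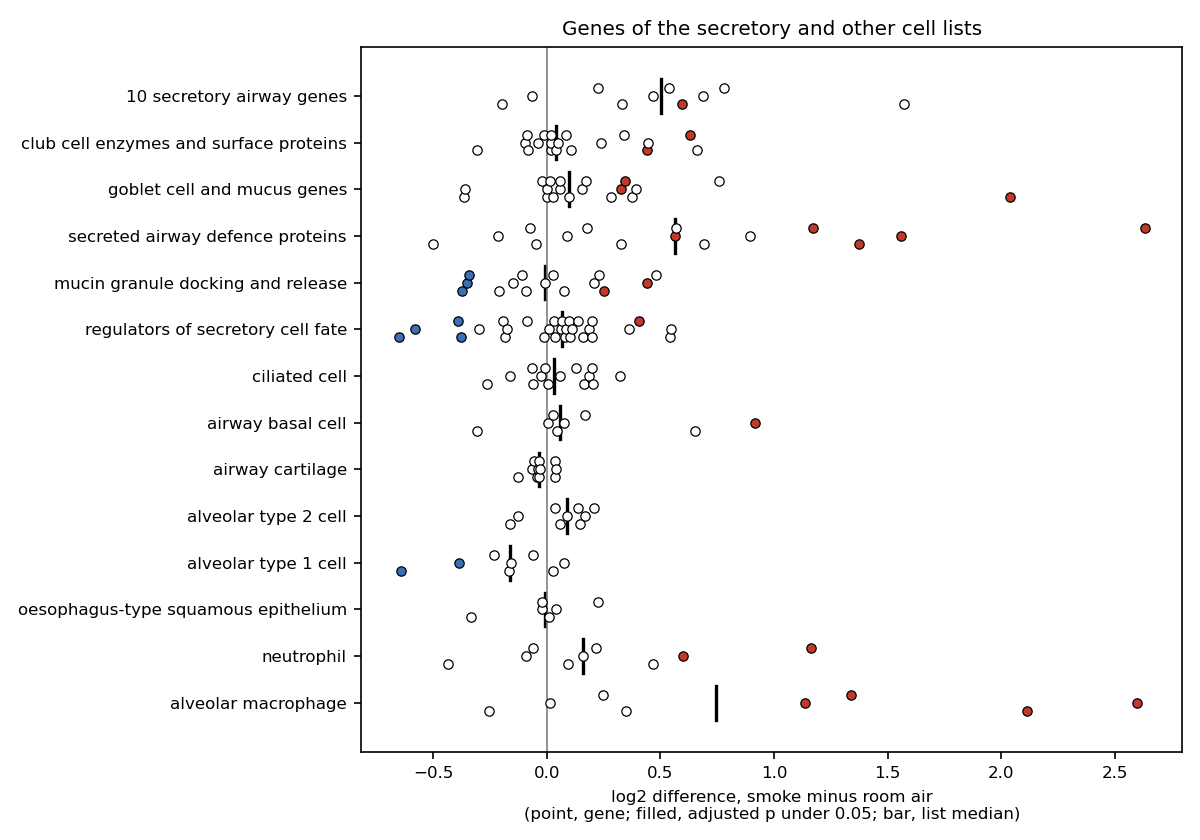
Log2 difference (smoke minus room air) of each measured gene, by list, with a bar at the list median; red points rose and blue points fell with an adjusted p under 0.05, and open points did not pass. The defence proteins reach 2.63 (Lcn2), the macrophage genes 2.60 (Marco), and the club cell enzymes centre near 0.04.

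Markers of the other cells in the tissue were read beside these genes. Of 14 ciliated cell genes 0 passed, with all 14 between -0.26 and 0.32 and a median of 0.03, and the mean over the list was 2.93, 2.78, 3.05, 2.61 and 2.70 in the room air lungs and 3.04, 2.80, 3.16, 2.57 and 2.75 in the smoke lungs. Of 9 alveolar type 2 cell genes 0 passed (median 0.09). Of 8 alveolar type 1 cell genes 0 rose and 2 fell, Cav1 at -0.64 (adjusted p = 0.00110) and Emp2 at -0.39 (adjusted p = 0.00196). A second Cav1 probe was at -0.36 (adjusted p = 0.333), and the call of Emp2 ended with median centring and with ratios scaled between arrays. With the slide as a block 1 ciliated cell gene and 1 alveolar type 2 cell gene were higher, and 3 alveolar type 1 cell genes lower, beside 13.8% of all genes.

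Tissue carried over from larger airways would bring cartilage, and from the oesophagus squamous keratins. Of 11 cartilage genes 0 passed, 6 were well above background in red on all 10 arrays, and 3 were so on none. The list mean was -0.01, -0.11, -0.12, -0.01 and -0.12 with room air and -0.13, -0.08, -0.12, -0.07 and -0.12 with smoke. Of 6 squamous genes 0 passed, and with the slide as a block 1 was lower. Of 8 basal cell genes 1 rose, Krt15, by 0.92 (adjusted p = 0.00567), and Trp63, chosen after its values were seen, was at 0.00 (adjusted p = 0.988). Without room air replicate 1, 2 basal cell genes rose (10.3% of all genes). With slide 1 left out and the slide as a block, 3 did (16.6% of all genes). The part of the sampled airway length in the levels of the secretory genes was not tested.

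Genes of inflammatory cells were read in the same way. Of 8 alveolar macrophage genes 4 rose, with a list mean of 3.55, 3.34, 3.46, 3.27 and 3.22 in the room air lungs and 4.35, 4.27, 4.55, 4.11 and 4.29 in the smoke lungs. Marco rose by 2.60 (adjusted p = 0.00248), Chil3 by 2.12 (adjusted p = 0.000138), Itgax by 1.34 (adjusted p = 2.56e-07) and Mrc1 by 1.14 (adjusted p = 0.00115), the last with green well above background on only 2 of 10 arrays and its call lost with the scanner's ratio, at 0.91 (adjusted p = 0.121), while Siglecf, chosen after its values were seen, was at 0.25 (adjusted p = 0.312). Of 9 neutrophil genes 2 rose with all arrays (list median 0.16), and 3 without room air replicate 1 (median 0.50), beside 10.3% of all genes. With slide 1 left out and the slide as a block, chosen after seeing the data, 6 rose, beside 16.6% of all genes. With all arrays Mmp8 rose by 1.16 (adjusted p = 0.0210) and Camp by 0.60 (adjusted p = 0.00881). In the green reference both were well above background on 0 of 10 arrays, so the size of these ratios is uncertain. Camp was at 1.80 in red alone at the 75th percentile (adjusted p = 0.0756) and at 2.30 (adjusted p = 0.0297) with the scanner's ratio, where Mmp8 was at 1.67 (adjusted p = 0.0788). The call of Mmp8 was lost without room air replicates 2, 3 or 5 or smoke replicate 1 (highest adjusted p = 0.0562). The part of these cells in the differences of Reg3g, Agr2, Muc5b and the defence genes was not tested.

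The genes most like 3 of the members were sought by the Pearson correlation of deviations from the group means over the 10 arrays, among 17071 other genes well above background in red on all arrays. For Muc5b the nearest was the liver-type enzyme gene Mat1a (r = 0.985, and 0.951 without room air replicate 1), followed by 2 cDNA clones without a gene name (r = 0.982 and 0.979). For Bpifa1 they included Mapk10 (r = 0.949) and Actn2 (r = 0.942), and for Scgb1a1 they were Myef2 (r = 0.920), Topbp1 (r = 0.899) and Foxq1 (r = 0.894). By rank the likeness to Scgb1a1 was lower, with a Spearman rho of 0.806, 0.648 and 0.624. Arrays of a slide share part of their deviations, so these values are a description of the 10 arrays.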

How the data were processed

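Per the file headers, each of the 10 arrays was read with Agilent Feature Extraction 9.5.3.1, which gave the spot intensity of both channels and the log10 ratio of the processed signals. The authors also deposited a table of normalised log2 values, which was used only as an alternative because its values equal the mean log2 signal of both channels on arrays of the other group. Mean intensity was background-corrected (normexp, offset 50), log2 ratios were loess-normalised within arrays, spots carrying an outlier flag were left out and spots of a probe averaged, in R 4.3.3 with limma 3.58.1. Per the same files, 41174 probes stand for 27557 genes, and 41173 were tested. A gene with several probes is given by its brightest. Adjusted p-values are limma's after the Benjamini-Hochberg method, and an array being well above background follows the scanner's flag. The fit was tested on simulated data. The arrays of the same replicate number shared a slide per the file headers, and their deviations from the group means correlated, by number, at 0.157, 0.461, 0.460, 0.550 and 0.415. Between arrays of different numbers the median was -0.123 and the highest 0.205, which is above the value of number 1. From each list the text names up to 5 genes past the threshold, by size of difference, and up to 3 others with a difference over 1; further genes are marked in the text, and some that this rule names are not reported here. The members and lists were chosen with earlier results of these data known. Alternatives were the slide as a block, each array left out, the exact Wilcoxon test, other background correction, offset and scaling, the scanner's ratio, the red channel alone, flagged spots kept, dim probes left out, a gene's probes averaged, and the authors' table.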

Additional observations from a re-analysis of the deposited data

Results flagged for a closer look

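In 17 of 90 groups of 5 arrays, 1 array lay far from the other 4. Over all 41174 probes, an array lay far above its group for 120 (smoke replicate 1) to 850 (room air replicate 1) probes. It lay far below for 106 (smoke replicate 1) to 505 (smoke replicate 2). Chance gives such a gap in about 1 in 20 groups, but the 90 groups include genes chosen after their values were seen (Il1b, S100a8, Ccl20, Muc4, Bpifb1 and Ltf), so their count is not set against that share. Many of these groups share an array, so they are not independent. The largest share fell to room air replicate 1, which stood far over the rest of its group for Reg3g (5.82, others 1.90 to 2.90), Agr2 (2.92, others 0.71 to 1.22), Slc26a4 (5.34, others 1.75 to 2.47), Lcn2 (4.03, others 0.51 to 0.92), Slpi (-0.51, others -1.78 to -1.47), Mmp8 (2.31, others 0.99 to 1.14), Muc4 (3.86, others 1.83 to 2.28), Il1b (5.96, others 2.41 to 2.85), S100a8 (4.39, others 1.49 to 2.09) and Ccl20 (3.85, others 0.20 to 0.73). Room air replicate 4 lay far below them for Spdef (0.74, others 0.95 to 1.02).

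Among the smoke arrays, replicate 4 lay far below the others for Scgb3a2 (7.12, others 8.36 to 8.79), Slc26a4 (4.36, others 4.93 to 5.08), Fut2 (0.33, others 0.64 to 0.76) and Marco (4.97, others 5.92 to 6.13). Smoke replicate 1 lay far above for Hey1 (4.02, others 3.78 to 3.82), and smoke replicate 3 for Mrc1 (5.15, others 4.28 to 4.43). The cause of these gaps was not tested.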

How the results depend on the processing

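With all arrays, the probes past the threshold were 2906, the members past the threshold 1 of the 10 genes, and the genes of the airway lists past the threshold 20. With the replicate number as a block these were 5019 probes, 4 of the 10 genes and 35 airway list genes; among the 10 genes the block changed the calls of Scgb3a1, Muc5b and Spdef, and among the list genes named in the text those of Bpifb1 and Ltf, and no other call of these genes. With slide 1 left out and the block, an alternative chosen after seeing the data, they were 6088 probes, 7 of the 10 genes and 45 airway list genes. Leaving out each array in turn gave 2102 to 3660 probes, 1 to 4 of the 10 genes and 12 to 34 airway list genes, and Scgb3a2 ranged from -0.0325 (without room air replicate 4) to 0.52 and Cyp2f2 from -0.14 to 0.00644 (without smoke replicate 4), so that both crossed 0. The exact Wilcoxon test gave 0, 0 and 0. In these data no gene passed it, since even separate groups, as for Muc5ac, had an adjusted p of 0.115. That value depends on the group size and on how many probes had separate groups, here 2837 of 41173. Median centring gave 1434 probes and 12 airway list genes, the scanner's log ratio 0 of the 10 genes and 10 airway list genes, and the red channel at its 75th percentile 1759 probes and 2 of the 10 genes. Of the 10 genes, 2 passed without background correction, 2 with ratios scaled between arrays, where Scgb1a1 turned to 0.13 and Cyp2f2 to 0.20, and 3 with the red channel quantile-normalised. The authors' table gave 13 probes with its columns as labelled and 13 by matching array, with 0 and 0 of the 10 genes and 0 and 0 airway list genes. As labelled, with its groups exchanged, it turned Scgb1a1 to 0.0641, Scgb3a1 to -1.69, Scgb3a2 to -0.53, Cyp2f2 to 0.30, Muc5ac to -0.84, Muc5b to -0.32, Bpifa1 to -1.45 and Spdef to -0.47. By matching array it turned Reg3g to -0.16 and Fut2 to -0.37. Agr2 could not be read from it. Apart from the exchanged columns, the cause was not tested.

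The remaining settings left these counts near those given first. The median red signal was 1.68 to 2.82 times its background over the arrays, which limits what can be read for dim genes, and Muc5b, Agr2 and Reg3g were dim in the green reference.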
